A study of Helianthus annuus with 12 samples.

Results

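Control roots were compared with control leaves of sunflower (Helianthus annuus) seedlings by small RNA sequencing, which reads the short RNAs of a tissue. The comparison rests on 6 of the 12 libraries of the study, chosen by their labels: 3 of control roots and 3 of control leaves. Both organs came from R5, a cultivar that the submitters describe as drought tolerant. Seedlings were grown in soil in a greenhouse with 16 h of light at 25 °C and 95% humidity, rinsed at the stage of 4 leaves, and left for 24 h in distilled water. The water bath is shared by both organs, so the control seedlings were themselves lifted from soil and rinsed. The other 6 libraries, of roots and leaves kept for 24 h in 15% PEG 6000, a polyethylene glycol that makes water harder for roots to take up, were used to look at the same organ contrast in other libraries. The labels do not say whether replicates were separate plants, pools or repeat preparations, so p-values reflect the spread among these libraries alone, which may be technical. The file holds small RNAs and no messenger RNA, so the organ labels could not be checked against marker transcripts.

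MicroRNAs are cut from hairpin precursors, loaded into Argonaute proteins and guide the cleavage or translational repression of transcripts with a matching site. Many plant families repress transcription factors, and their balance helps to set leaf polarity, organ boundaries, root branching and the switch between juvenile and adult growth. Small interfering RNAs (siRNAs) are cut from long double-stranded RNA, and many direct DNA methylation at transposons and repeats. Roles given below are those established in Arabidopsis; targets were not measured here. Sequences of these small RNAs were not used here.

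The file gives counts for 163 known microRNA names, 90 predicted microRNAs (novel_mir), 15055 siRNAs (novel_sir) and families of other small RNAs from the Rfam collection. Total counts were 20829490 to 22433591 in control roots and 31583451 to 33154566 in control leaves. Entries that name no small RNA (exon, intron and intergenic) held 82.2% to 84.6% of counts in control roots and 81.4% to 82.3% in control leaves, and were left out of all tests. Control root library 3 stood apart from the other root libraries. Rfam microRNA precursor families held 1.10% of its reads, against 0.0414% and 0.0461% in control root libraries 1 and 2 and 0.0746% to 0.0898% in control leaves. Of the 110 precursor families, 18 had at least 1000 counts in that library, against 3 and 4 in control root libraries 1 and 2. They were led by families named after animal microRNAs: mir-10 had 45653 counts there and mir-26 had 44696, against 1118 and 1227 counts of mir-10 in the other root libraries. A list of 7 animal precursor families reached 2167 RPM (reads per library, scaled to a common total of all counted reads) in it, against 68.8 and 68.3 RPM in control root libraries 1 and 2 and 22.4 to 25.0 RPM in control leaves. The list includes mir-10, which gave 45653 of its 48610 counts in control root library 3. Known microRNAs were scarcer in it, at 0.550% of reads against 1.12% and 1.85% in control root libraries 1 and 2. Its scaling factor (TMM, trimmed mean of M values, which sets libraries on one scale through features assumed stable) was 0.496 among microRNAs and 0.295 among all features, and this raises its scaled values. The part of these features in the results was not tested, and results that rest on this library are also given without it.

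The first question was how the classes of small RNA divide the reads of each organ. Predicted microRNAs held 9.26%, 9.12% and 11.9% of all counted reads in control roots, against 2.43%, 2.32% and 3.05% in control leaves. Known microRNAs held 1.12%, 1.85% and 0.550% in control roots, against 8.87%, 9.12% and 9.33% in control leaves. siRNAs held 2.46%, 2.59% and 1.25% in control roots, against 6.10%, 6.43% and 5.78% in control leaves. The groups did not overlap in any of these classes, and root libraries were high in predicted microRNAs and low in known microRNAs and siRNAs. Fragments of ribosomal RNA, the RNA of ribosomes, averaged 2.27% ± 0.169 in control roots and 0.211% ± 0.0998 in control leaves (SD, n = 3 each). Fragments of transfer RNA averaged 0.0643% ± 0.0506 in control roots and 0.000381% ± 0.000126 in control leaves, 169-fold higher in roots. Without control root library 3 the root mean of transfer RNA was 0.0351%. Small nucleolar RNAs, which guide the modification of ribosomal RNA, averaged 0.0404% ± 0.0121 in control roots and 0.00301% ± 0.000688 in control leaves. Small nuclear RNAs of the spliceosome averaged 0.0387% ± 0.00680 in control roots and 0.00697% ± 0.00139 in control leaves. Each of these 7 classes differed without overlap, with a two-sided exact permutation p of 0.1, the smallest that 3 against 3 libraries allow. In whole organs, fewer cells of a type and less RNA per cell cannot be told apart, and since shares sum to the whole, a class that takes more reads leaves fewer for the others. Ribosomal, transfer, nucleolar and nuclear fragments, read here as signs of RNA quality, all moved with the organ; their part in the microRNA results was not tested.

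**Figure D1:**
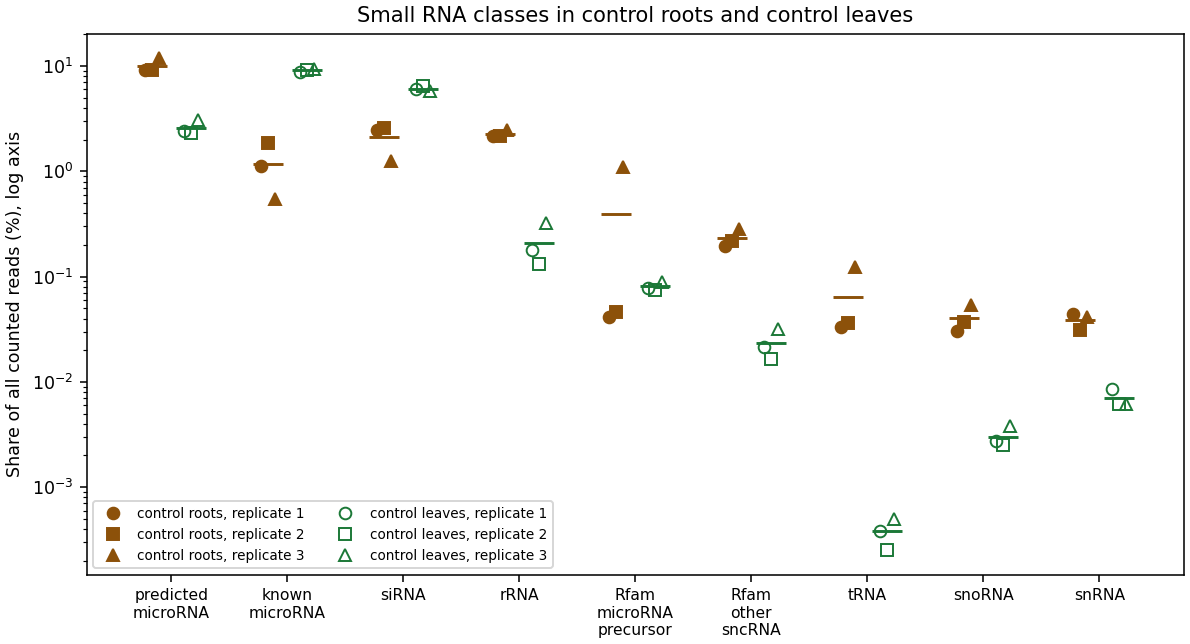
Share of all counted reads (percent, log axis) held by each class of small RNA in the 3 control root libraries (filled symbols, left) and the 3 control leaf libraries (open symbols, right), with horizontal lines at the group means. Root replicate 3 lies apart for Rfam microRNA precursors, at 1.10% against 0.0414% and 0.0461% in the other root libraries.

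Known microRNA names were summed per family, because names borrowed from several species can split the reads of near-identical copies. The 38 known families and 90 predicted microRNAs were fitted in one table, where 34 known families and all 90 predicted microRNAs had at least 10 counts in at least 3 of the 12 libraries. Levels are given as CPM, counts scaled to a common total of microRNA reads with TMM factors, differences as log2 fold changes of control roots over control leaves, and calls at an adjusted p under 0.05 (edgeR's quasi-likelihood test with Benjamini-Hochberg adjustment over all 124). Of the 34 known families, 6 were higher and 19 lower in control roots, where 41.1% of all 124 were called higher and 38.7% lower, 79.8% in all. Without control root library 3, 6 were higher and 18 lower (41.9% and 33.9% of all 124, 75.8% in all), and the call of miR396 was lost. The share of known families called was thus near the background of this table, most of which differed between the organs. The median known family had a log2 fold change of -1.58, against -0.27 over all 124.

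The estimates depended on what the known families were scaled to. When known families were fitted without the predicted microRNAs, so that each is read against the other known families, 11 (32.4%) were higher and 7 (20.6%) lower in control roots, and the median of all known families moved up by 1.72 on the log2 scale, to 0.14. When counts were scaled to all counted reads of a library, 4 were higher and 20 lower, where 39.5% of all 124 were called higher and 41.9% lower, 81.5% in all. With the replicate number as a block, 4 were higher and 18 lower, against 39.5% and 34.7% of all 124, 74.2% in all. On all 3 scales 11 families kept their call and direction: miR319, miR477, miR3630 and miR6300 were higher in control roots, and miR166, miR167, miR168, miR170, miR393, miR397 and miR398 were lower.

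**Figure D2:**
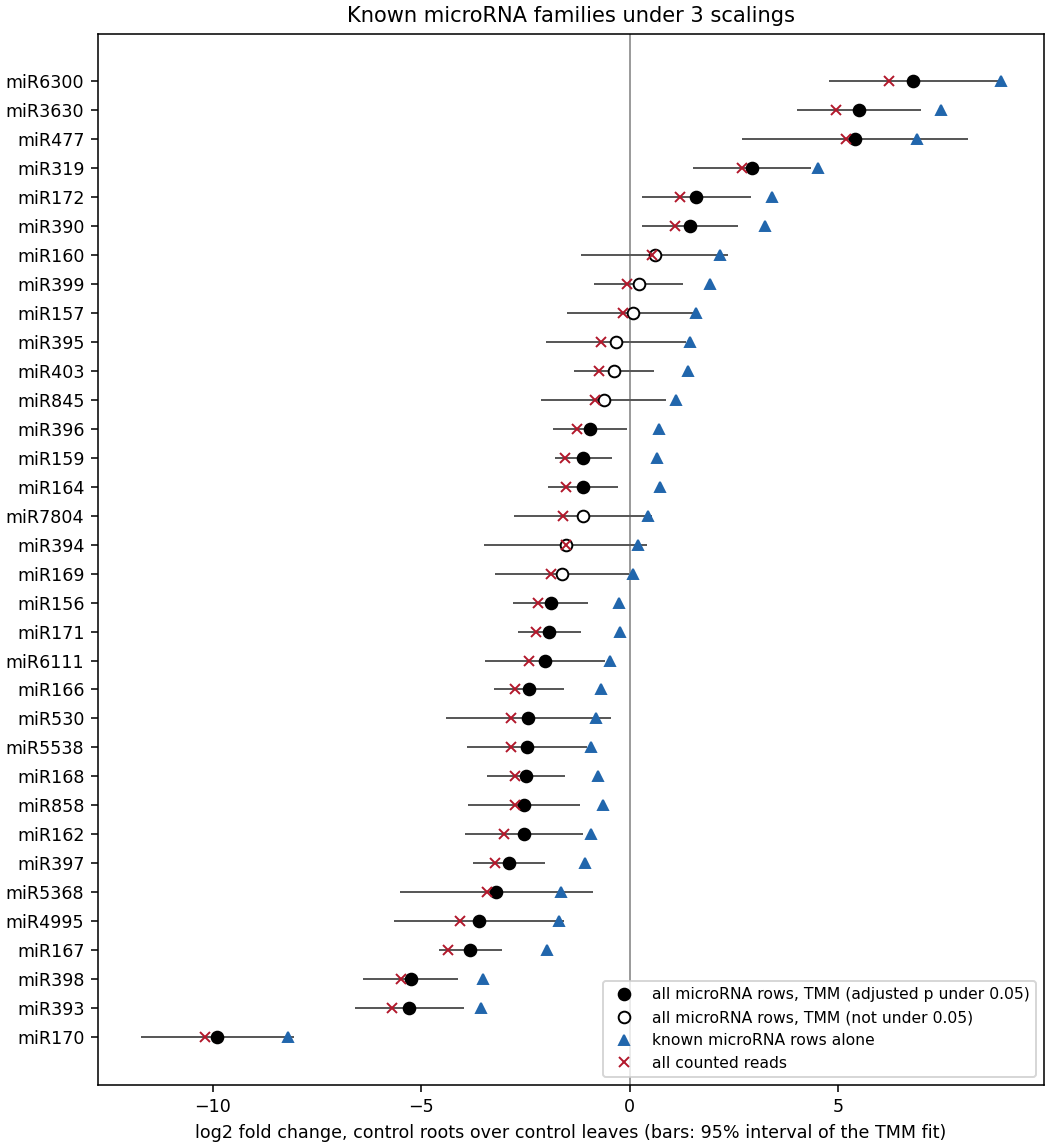
Log2 fold change of control roots over control leaves for the 34 known microRNA families tested, with the 95% interval of the TMM fit over known and predicted microRNAs (circles, filled where the adjusted p is under 0.05), and the estimates with known families alone (triangles) and scaled to all counted reads (crosses). Triangles lie to the right of circles by a median of 1.72, so families such as miR396, miR159 and miR164 fall on either side of 0.

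Among the regulators of transcription factors, 2 of 12 tested families were higher in control roots and 8 were lower, beside 6 and 19 of all 34 known families and 41.1% and 38.7% of all 124. With known families alone 4 were higher and 2 lower, beside 32.4% and 20.6% of the 34. Their median log2 fold change was -1.37, or 0.36 with known families alone. miR319, which represses TCP transcription factors of leaf growth, had 1267, 1058 and 210 CPM in control roots, against 85.5, 79.8 and 167 CPM in control leaves. The groups did not overlap, although control root library 3 came close to the leaves. Its log2 fold change was 2.93 (SE 0.65, adjusted p = 0.00123, edgeR), and 3.39 without that library. miR172, which represses AP2-like factors and promotes the adult phase, was sparse, with 100, 110 and 59 counts in control roots, against 42, 77 and 53 counts in control leaves from deeper libraries. On the CPM scale it had 49.4, 41.3 and 42.5 in control roots, against 7.62, 19.3 and 17.0 in control leaves, with no overlap. The log2 fold change was 1.60 (SE 0.61, adjusted p = 0.0275, edgeR); the adjusted p was 0.0689 with the replicate number as a block and 0.0750 when scaled to all counted reads, and the call was lost without control leaf library 1, where the log2 fold change was 1.29.

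miR166, which represses the HD-ZIP III factors that set the upper face of leaves and pattern the vasculature, was the most abundant known family in control roots. It held 34.0%, 40.9% and 39.7% of known microRNA reads there, against 36.1%, 33.6% and 30.4% in control leaves, so its share overlapped between organs. On the CPM scale it had 39115, 63195 and 35254 in control roots, against 183770, 247230 and 301660 in control leaves. The log2 fold change was -2.41 (SE 0.39, adjusted p = 1e-04, edgeR), and -0.69 (adjusted p = 0.0134) with known families alone. miR858, which represses MYB factors of flavonoid synthesis, had 13399, 8006 and 7307 CPM in control roots, against 18130, 40514 and 106680 CPM in control leaves. Leaves spread widely, yet the groups did not overlap, and the log2 fold change was -2.53 (SE 0.62, adjusted p = 0.00239). With known families alone it was -0.63 (adjusted p = 0.209), and without control leaf library 3 it was -1.62, still called.

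miR396, which represses growth-regulating factors, had 17383, 35991 and 13035 CPM in control roots, against 34714, 47349 and 45530 CPM in control leaves. Its groups overlapped. The log2 fold change of -0.94 (SE 0.41, adjusted p = 0.0497, edgeR) became -0.67 (adjusted p = 0.141) without control root library 3, and turned to 0.70 (adjusted p = 0.0384) with known families alone. The call was also lost without control root library 1 and without control leaf library 2 or 3. As a share of known reads miR396 took 15.1%, 23.3% and 14.7% in control roots, against 6.83%, 6.44% and 4.58% in control leaves. miR159 (log2 fold change -1.11), which represses GAMYB factors, and miR164 (-1.12), which represses NAC factors of organ boundaries, were likewise called lower and turned to 0.65 and 0.73 with known families alone, where neither was called. miR164 also had an adjusted p of 0.0589 with the replicate block, and was not called without control root library 2 (-0.87) or control leaf library 2 (-1.03) or 3 (-0.93). miR156, which represses SPL factors and keeps shoots juvenile, was lower at -1.89 on the log2 scale (adjusted p = 0.00115), and miR171, which represses GRAS factors, at -1.92 (adjusted p = 0.000271). With known families alone these were -0.24 and -0.22, and neither was called. miR157, which shares the SPL targets (log2 fold change 0.07), and miR169, which represses NF-YA factors (-1.63, adjusted p = 0.0589), were not called; with known families alone miR157 was higher in control roots by 1.59 (adjusted p = 0.0250).

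The largest difference of all known families belonged to miR170, whose single name in the file is miR170-5p, the strand opposite the one that pairs with GRAS transcripts. It had 3, 5 and 1 counts in control roots, against 4384, 5216 and 6362 counts in control leaves. Roots were near 0 in every library and leaves were not. The log2 fold change was -9.89 (SE 0.84, 95% interval -11.7 to -8.06, adjusted p = 2.13e-06, edgeR). PEG libraries repeated it, at -8.69 (adjusted p = 8.55e-06). miR170 and miR171 are near-identical in other plants, so how reads were divided between them is uncertain.

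All 4 families of the auxin list were tested; 1 was higher, 2 were lower, and 1 was not called, a list too short to set against the 41.1% higher and 38.7% lower of all 124. miR393, which represses the auxin receptors, had 27, 40 and 18 counts in control roots, against 2592, 1681 and 2252 counts in control leaves. Every leaf library held far more than every root library, and the log2 fold change was -5.28 (SE 0.60, adjusted p = 1.17e-05, edgeR). miR167, which represses the auxin response factors ARF6 and ARF8, had 6923, 6757 and 9850 CPM in control roots, against 94612, 128580 and 108380 CPM in control leaves, a log2 fold change of -3.82 (SE 0.35, adjusted p = 2.13e-06). It took 6.01%, 4.38% and 11.1% of known reads in control roots, against 18.6%, 17.5% and 10.9% in control leaves, where root library 3 overlapped the leaves. miR390, which starts the production of trans-acting siRNAs against other auxin response factors, had 1002, 409 and 450 CPM in control roots, against 123, 280 and 276 CPM in control leaves. These groups did not overlap, and the log2 fold change was 1.46 (SE 0.53, adjusted p = 0.0232). The adjusted p was 0.106 with the replicate block and 0.0728 when scaled to all counted reads. The call was also lost without control root library 1 (0.93) and without control leaf library 1 (1.16). miR160, which represses ARF10, ARF16 and ARF17, had 111, 886 and 62.7 CPM in control roots, against 162, 155 and 380 CPM in control leaves, and the overlapping groups gave a log2 fold change of 0.61 (adjusted p = 0.495). It turned to -1.27 without control root library 2.

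Both tested members of the copper-responsive list were lower in control roots on all 3 scales, where 38.7% of all 124 were lower on the first. miR398, which represses copper/zinc superoxide dismutases, had 5842, 6683 and 2789 CPM in control roots, against 109380, 169100 and 302560 CPM in control leaves. It filled 5.07%, 4.33% and 3.14% of known reads in control roots, against 21.5%, 23.0% and 30.4% in control leaves, without overlap. The log2 fold change was -5.25 (SE 0.53, adjusted p = 4.75e-06, edgeR). miR397, which represses laccases, enzymes of lignin polymerisation, had 713, 741 and 585 CPM in control roots, against 2660, 5891 and 6607 CPM in control leaves. Its log2 fold change was -2.89 (SE 0.40, adjusted p = 3.56e-05), although its share of known reads overlapped, with means of 0.586% ± 0.0937 in control roots and 0.663% ± 0.139 in control leaves.

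Of the families that act back on the small RNA pathway, 2 of 3 were lower in control roots, near the share of all known families, 19 of 34. miR168, which represses ARGONAUTE1, had 10880, 11172 and 5275 CPM in control roots, against 33353, 44538 and 74762 CPM in control leaves (log2 fold change -2.48, SE 0.43, adjusted p = 0.000181, edgeR). On the CPM scale roots lay below leaves in every library. With known families alone the log2 fold change of miR168 was -0.77, smaller but still called. miR162, which represses DICER-LIKE1, had 60.8, 48.1 and 32.4 CPM in control roots, against 276, 335 and 212 CPM in control leaves (log2 fold change -2.54, adjusted p = 0.00329). With known families alone its log2 fold change was -0.92 (adjusted p = 0.181). miR403, which represses ARGONAUTE2, was not called (log2 fold change -0.38, adjusted p = 0.442), but with known families alone it was higher in control roots by 1.41 (adjusted p = 0.00348).

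The nutrient families miR399, which represses the PHO2 regulator of phosphate uptake, and miR395, which represses enzymes of sulphate assimilation, were not called. miR399 averaged 1350 ± 611 CPM in control roots and 1161 ± 637 CPM in control leaves (SD, n = 3 each), a log2 fold change of 0.22 (adjusted p = 0.685, edgeR), and with known families alone 1.92 (adjusted p = 0.000142). miR395 averaged 41.2 ± 15.3 CPM in control roots and 51.7 ± 32.2 CPM in control leaves. No family of the list of regulators of NLR disease resistance genes reached the count minimum. Over the list of families conserved across seed plants, 4 of 22 tested were higher and 12 lower, with a median log2 fold change of -1.33, beside 6 and 19 of all 34 known families with a median of -1.58. With known families alone 8 were higher and 6 lower, beside 11 and 7 of the 34.

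The rest of the root-high group were miR6300, miR3630 and miR477. miR6300 had 340, 512 and 948 counts in control roots, against 11, 5 and 19 counts in control leaves. Its log2 fold change was 6.81 (SE 0.94, adjusted p = 3.56e-05, edgeR), with 5.86 without control root library 3, its highest library, and 7.70 without control leaf library 3. miR3630 had 314, 398 and 469 counts in control roots, against 17, 21 and 18 counts in control leaves, a log2 fold change of 5.50 (SE 0.69, adjusted p = 2.23e-05). miR477 had 17, 91 and 3 counts in control roots, against 1, 3 and 0 counts in control leaves, so its log2 fold change of 5.41 (SE 1.25, adjusted p = 0.00159) rests on few reads, with 4.02 without control root library 2 and 6.66 without control leaf library 2. On the lower side, miR4995 had 1, 6 and 10 counts in control roots, against 109, 60 and 260 counts in control leaves (log2 fold change -3.62, with -4.76 without control root library 3 and -2.45 without control leaf library 3). miR5368 had 0, 1 and 0 counts in control roots, against 4, 6 and 10 counts in control leaves (log2 fold change -3.19, with -5.47 without control root library 2 and -2.53 without control leaf library 3). miR6111 (-2.03), miR5538 (-2.46) and miR530 (-2.42) were also called lower, and none of these 5 was called with known families alone. miR6111 was at -2.85 without control root library 1 and miR5538 at -3.10 without control root library 2. miR530 lost its call without control root library 1 or 2 or control leaf library 3, and was at -3.10 without control root library 3. miR394, which represses the F-box gene LCR (log2 fold change -1.53), miR7804 (-1.12) and miR845 (-0.62) were not called. miR1171, miR1511, miR414 and miR5658 did not reach the count minimum and held at most 4 counts in any control library.

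The same organ contrast could be read in PEG-treated seedlings, in libraries that share none with the controls. All 25 called known families had the same sign under PEG and 20 were called there, where 38.7% of all 124 were called higher and 31.5% lower. miR171, miR164, miR159, miR530 and miR6111 were not called under PEG. The difference between the organ contrasts was tested directly: edgeR called 0 of 124 families (0.0%), while 30 had an unadjusted p under 0.05. DESeq2 called 30, and 8 passed with the replicate block. miR171 had a log2 fold change of -0.74 under PEG, against -1.92 in controls (adjusted p of the difference 0.191). miR160 had -2.83 under PEG, against 0.61 in controls (adjusted p of the difference 0.119).

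Within families, the names that carry the reads also differed between organs. A name was tested for whether its fold change differed from that of its whole family, a measure that does not depend on scaling between libraries. These relative fold changes are given as natural logs, unlike the log2 fold changes elsewhere. Of 118 names in 23 families, 17 in 10 families passed (14.4%, edgeR's diffSpliceDGE, Benjamini-Hochberg adjusted): 10 took more of their family in control roots and 7 took more in control leaves. Without control root library 3, 15 passed, and 11 passed with the replicate block. Shares did not overlap for 13 of the 17, against 39.0% of all 118 names.

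miR171 exchanged its main name between organs. miR171a_1 made up 78.4%, 81.9% and 80.7% of miR171 reads in control roots, against 0.537%, 0.459% and 0.487% in control leaves. Relative to its family it was higher in control roots by 5.10 on the natural-log scale (adjusted p = 4.8e-05, edgeR). miR171b_2 made up 0.564%, 0.848% and 0.696% in control roots, against 69.7%, 67.8% and 72.7% in control leaves. Its relative fold change was -4.60 as a natural log (adjusted p = 0.000145, edgeR). No library of either organ came near the other. miR171i_1 took 4.51%, 2.45% and 3.97% in control roots, against 0.0717%, 0.0639% and 0.0272% in control leaves, and miR171f_1 had 14 counts over the 3 roots, against 0 in the leaves. miR171b-3p held 0.0385%, 0.0195% and 0.244% in control roots, against 19.3%, 0.654% and 15.7% in control leaves. miR171b-3p_3 held 0.282%, 0.136% and 0.0348% in control roots, against 0.891%, 21.7% and 0.930% in control leaves. These last 2 names traded places between leaf libraries: the leaf library with the most of one had the least of the other. miR171b-3p_3 was not called without control leaf library 2 (relative fold change -1.68 as a natural log), and miR171b-3p was at -6.09 without control root library 3. miR171_1 was read in 2 control leaf libraries and no control root, and its call was lost without any control library other than control leaf library 2. PEG libraries repeated the exchange, with miR171a_1 at 72.8% to 78.4% in PEG roots and 1.01% to 3.32% in PEG leaves. In absolute terms miR171a_1 was thus higher in control roots, with a log2 fold change of 6.30 (adjusted p = 5.21e-05), while the family total was lower.

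In miR390, the name miR390 held 11.8%, 13.6% and 13.3% of family reads in control roots, against 0.296%, 0% and 0.350% in control leaves. Its relative fold change was 4.14 as a natural log (adjusted p = 0.000145, edgeR). The name miR390a-5p led both organs, with 86.0% ± 0.857 in control roots and 98.4% ± 0.902 in control leaves (SD, n = 3 each). miR167a held 1.68%, 1.80% and 2.07% of miR167 reads in control roots, against 0.0263%, 0.0377% and 0.0285% in control leaves. miR398a-3p_1 averaged 0.602% ± 0.695 of miR398 in control roots and 0.0105% ± 0.00723 in control leaves, while miR398b_2 held at least 98.6% in every control library. miR319b-5p_2 averaged 6.11% ± 2.52 of miR319 in control roots and 0.443% ± 0.474 in control leaves. In miR393, miR393h was read in leaves alone among the control libraries, and miR393a-5p took 48.1%, 52.5% and 5.56% in control roots, against 5.25%, 2.14% and 4.26% in control leaves. miR169e_3 held 0.131% ± 0.227 of miR169 in control roots and 28.2% ± 7.22 in control leaves. miR169e_3, miR393h and miR171_1 missed the threshold without control root library 3 (adjusted p of 0.062, 0.0869 and 0.0612). miR169e_3 lost its call without any of the 3 control roots, and miR393h without any of them or control leaf library 3. miR393a-5p lost its call without any control library other than control root library 3, and miR319b-5p_2 without control root library 1 or control leaf library 1 or 3. The relative fold change of miR398a-3p_1 was 3.84 as a natural log, and 3.21 without control root library 3.

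Some shares differed as much between libraries of one organ as between organs, and these names are uncertain. Over the 118 names, 12 in 7 families ranged by at least 50 percentage points within an organ. miR167d-5p held 70.9%, 77.6% and 0.607% of miR167 in control roots, against 1.45%, 96.3% and 2.77% in control leaves, while miR167d_1 held 0.900%, 1.97% and 69.4% in control roots, against 95.5%, 0.943% and 94.4% in control leaves. Where one was high the other was low in each library. miR166u and miR166h-3p_1 did the same: miR166h-3p_1 held 42.4%, 0.0576% and 0.0736% of miR166 in control roots, against 63.6%, 0.0367% and 62.2% in control leaves. Names in miR395, miR169, miR160, miR156 and miR172 also swung in this way. Of the 17 names that passed, 2 belong here: the name miR160, at 86.3% of its family in 1 control leaf library and at most 2.68% in the other 5 control libraries, and miR172a_2, at 83.0%, 0% and 72.9% in control roots, against 0%, 0% and 1.89% in control leaves. The called name miR156k was similarly uneven, at 29.9%, 0.0470% and 0% in control roots and at most 0.0157% in control leaves. The calls were lost for the name miR160 without control root library 2 or control leaf library 3, for miR172a_2 without control leaf library 1 or 2, and for miR156k without control root library 1. Family sums are not touched by how reads are divided between such names.

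**Figure D3:**
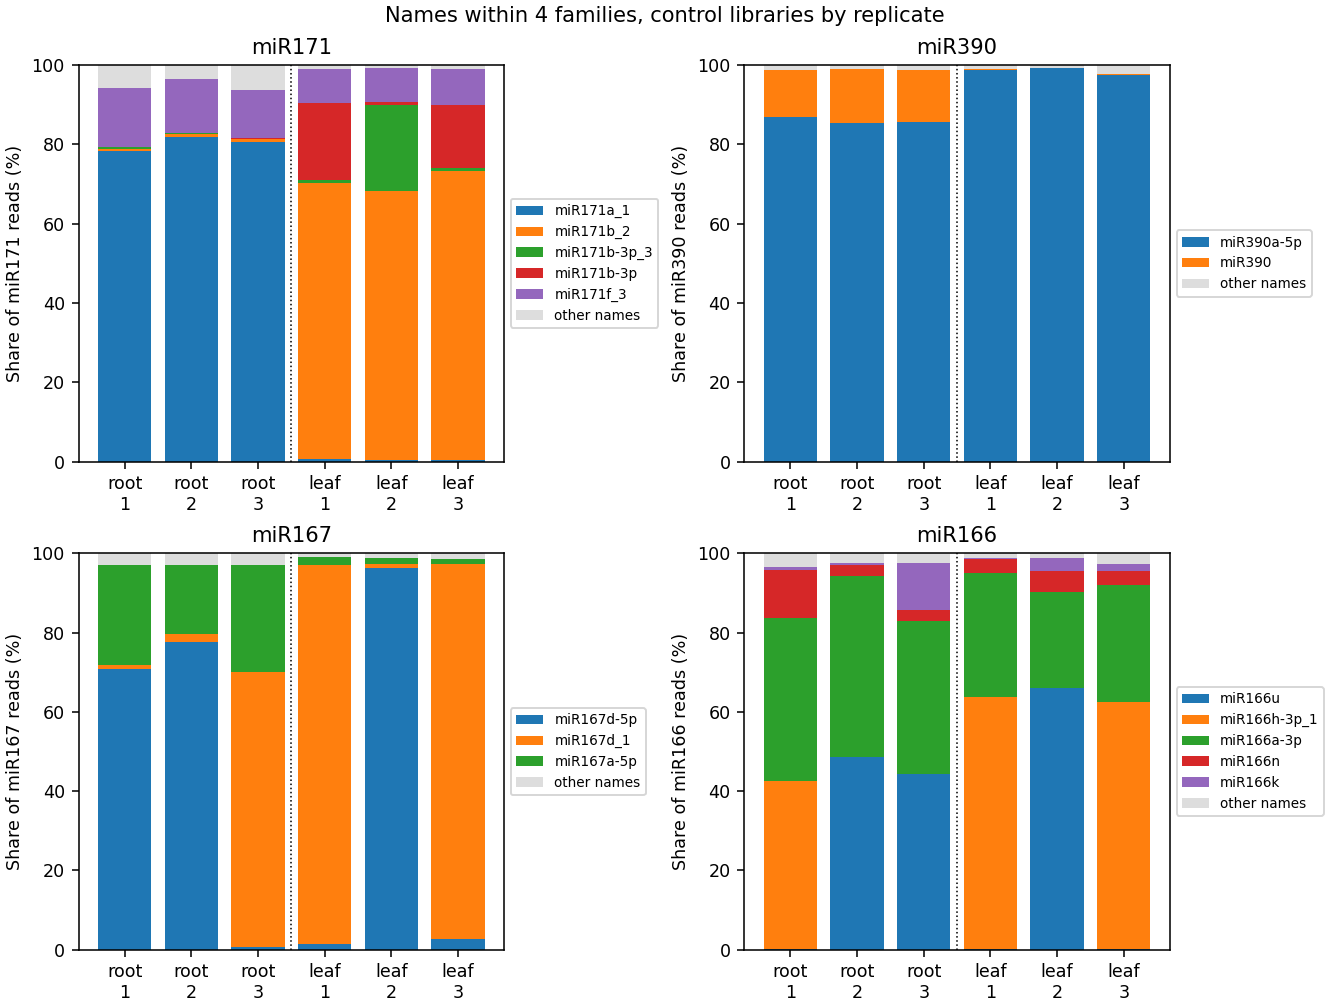
Share of family reads (percent) held by each name of miR171, miR390, miR167 and miR166 in the control libraries, with root replicates 1 to 3 left of leaf replicates 1 to 3; names that never reach 10% are pooled as other names. miR171a_1 holds 78.4% to 81.9% of miR171 in roots and under 1% in leaves in every library, whereas miR167d-5p and miR167d_1, and miR166u and miR166h-3p_1, change places between libraries of the same organ.

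Most other leading names led in both organs. miR396f_1 held 93.1% ± 2.59 of miR396 in control roots and 89.1% ± 2.21 in control leaves, and miR168a-5p held 87.4% ± 0.998 of miR168 in control roots and 86.6% ± 1.38 in control leaves (SD, n = 3 each). miR164c_1 led miR164 with 73.5% ± 8.49 in control roots and 55.3% ± 8.59 in control leaves, and miR319a_1 led miR319 with 73.9% ± 8.98 in control roots and 67.7% ± 16.3 in control leaves. miR159 was split between miR159a-3p, at 53.9% ± 1.41 in control roots and 41.4% ± 3.23 in control leaves, and miR159a_1 with the rest. It was an exception, as miR159a-3p led in control roots and miR159a_1 in control leaves. miR172a_3 was another, with 11.7% ± 3.21 of miR172 in control roots and 89.0% ± 1.93 in control leaves. In miR166, miR166a-3p had the highest mean in control roots and miR166h-3p_1 in control leaves, at 41.95% ± 36.3. In miR156 the name miR156 averaged 30.2% ± 24.9 in control roots and 36.1% ± 15.8 in control leaves, in miR160 the name miR160a-5p averaged 79.7% ± 15.1 in control roots and 51.5% ± 42.3 in control leaves, and in miR166 the name miR166a-3p averaged 41.8% ± 3.63 in control roots and 28.4% ± 3.74 in control leaves. None of these names passed the test within families, although the shares of miR159a-3p, miR164c_1, miR166a-3p and miR172a_3 did not overlap.

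Predicted microRNAs set the roots apart by amount. They are hairpins called by the authors' pipeline with no family name, and their targets are not given. Of the 90, 45 were higher and 29 lower in control roots, and 16 were not called. Over all 124, 41.1% were called higher and 38.7% lower, 79.8% in all, so the share called was near that of the whole table. Without control root library 3, 46 were higher and 24 lower (41.9% and 33.9% of all 124). Fitted without the known families, 41 were higher and 37 lower. Scaled to all counted reads, 45 were higher and 32 lower (39.5% and 41.9% of all 124). With the replicate block, 45 were higher and 25 lower (39.5% and 34.7% of all 124). Of the 74 called, 73 had the same sign under PEG and 61 were called there. The exception in sign was novel_mir21. Of the 99 called among all 124, 98 had the same sign under PEG and 81 were called there. Under PEG, 38.7% of all 124 were called higher and 31.5% lower. A few species carried most of the root reads of this class: the top 5 of a library held 66.4% to 77.1% of predicted reads in control roots and 48.9% to 52.3% in control leaves.

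novel_mir9 had 146710, 98054 and 564190 CPM in control roots, against 1143, 1003 and 4726 CPM in control leaves, a log2 fold change of 6.88 (SE 0.88, adjusted p = 2.35e-05, edgeR) and of 5.74 without control root library 3, where it was highest, 7.52 without control root library 2 and 7.97 without control leaf library 3. novel_mir79 had 226860, 141930 and 207540 CPM in control roots, against 988, 1278 and 3974 CPM in control leaves (log2 fold change 6.53, adjusted p = 1.5e-05, and 7.41 without control leaf library 3). novel_mir20 was abundant in both organs, with 124530, 110010 and 397120 CPM in control roots, against 4950, 9607 and 17657 CPM in control leaves (log2 fold change 4.29, adjusted p = 4.49e-05, and 3.45 without control root library 3). In every one of these the lowest root library exceeded the highest leaf library several times over. novel_mir58 averaged 115610 ± 78310 CPM in control roots and 7976 ± 5600 CPM in control leaves (SD, n = 3 each; log2 fold change 3.86, with 3.14 without control root library 3 and 4.61 without control leaf library 3). novel_mir10 averaged 104280 ± 15402 CPM in control roots and 861 ± 681 CPM in control leaves (log2 fold change 6.92, adjusted p = 5.7e-06, and 7.79 without control leaf library 3).

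Of the 5 predicted microRNAs that led in leaves, novel_mir20 is given above, and novel_mir40, novel_mir23 and novel_mir82 were lower in roots. novel_mir40 had 3712, 7265 and 5058 CPM in control roots, against 21692, 32763 and 49357 CPM in control leaves (log2 fold change -2.69, SE 0.52, adjusted p = 0.000408, edgeR). novel_mir23 averaged 4162 ± 2799 CPM in control roots and 33286 ± 23802 CPM in control leaves (log2 fold change -3.00, with -3.69 without control root library 1 and -2.25 without control leaf library 3), and novel_mir82 averaged 1419 ± 586 CPM in control roots and 11098 ± 5129 CPM in control leaves (log2 fold change -2.97). novel_mir75, with 14917 ± 3543 CPM in control roots and 18065 ± 6654 CPM in control leaves, did not differ beyond the spread (log2 fold change -0.28, adjusted p = 0.459). Among those read in both organs, novel_mir29 stood at 355, 242 and 67 counts in control roots, against 17466, 16298 and 13981 counts in control leaves (log2 fold change -5.22, adjusted p = 5.7e-06, and -5.81 without control root library 1). novel_mir78 had 53, 28 and 22 counts in control roots, against 1798, 901 and 4747 counts in control leaves (log2 fold change -5.30, and -3.98 without control leaf library 3).

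Several predicted microRNAs were read in one organ alone. In the deposited counts no predicted microRNA or siRNA has a value from 1 to 9, so a 0 can stand for up to 9 reads, and folds against 0 are given as lower bounds against a floor of 9 counts per library. Of the 90, 12 were at 0 in all control leaves, all of them called higher in control roots, and 9 of these were also at 0 in all PEG leaves. An entry that passes the count minimum through 1 organ had to differ in this way, so these calls add nothing to the zeros. The same limit holds for entries at 0 in roots. novel_mir12 had 1582, 947 and 702 counts in control roots, against 0 in each control leaf, at least 242.2-fold higher. novel_mir2 had 634, 655 and 928 counts in control roots, at least 181-fold higher than in leaves at 0, and novel_mir39 had 718, 730 and 650, at least 161.7-fold higher. novel_mir14 (at least 110-fold), novel_mir16 (at least 85.2-fold) and novel_mir36 (at least 46.98-fold) followed. Without control root library 3 the bounds were 61.35 for novel_mir14 and 56.45 for novel_mir16, and those of novel_mir12, novel_mir2, novel_mir39 and novel_mir36 moved by less than 1.5 times. Over all 12 the bounds ran from 12.07 to 242.2, and novel_mir32 was at 17.95, with 10.21 without control root library 3. In the other direction 4 were at 0 in all control roots, and 1 of them, novel_mir72, was also at 0 in all PEG roots. novel_mir8 had 0 counts in each control root, against 534, 1518 and 838 counts in control leaves, at least 52.2-fold lower in roots. novel_mir30 was at least 25.26-fold lower, novel_mir26 at least 8.614-fold and novel_mir72 at least 7.629-fold. Roots had the smaller libraries, so a 0 there hides a somewhat larger share of reads. Above 0 in all 6 control libraries were 68 predicted microRNAs.

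**Figure D4:**
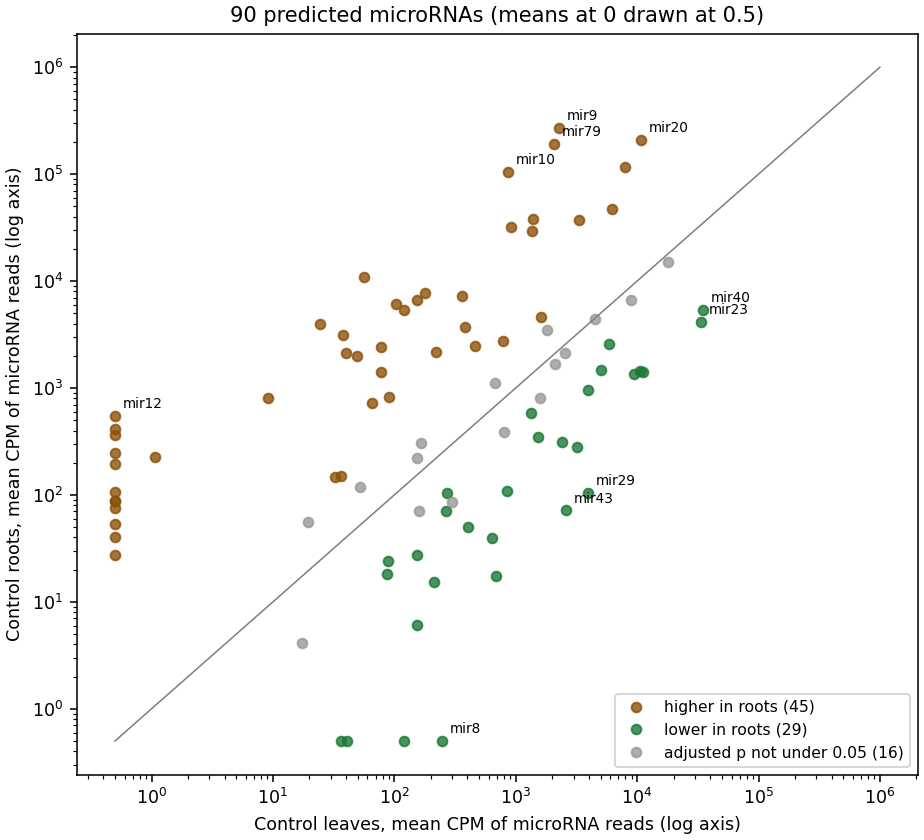
Mean CPM in control roots (vertical, log axis) against mean CPM in control leaves (horizontal, log axis) for the 90 predicted microRNAs, coloured by call; the line marks equal values and means at 0 are drawn at 0.5. The 12 points along the left edge were at 0 in all control leaves and the 4 along the bottom at 0 in all control roots, and the most abundant root species, novel_mir9, novel_mir20, novel_mir79 and novel_mir10, lie far above the line.

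Position was a feature that the comparison did not use. The file places 84 predicted microRNAs on 17 chromosome-level sequences and 6 on unplaced ones; the genome build is not given in the sources used here, so no coordinates or gene context are reported. Neighbours within 200 kb formed 8 pairs, and both members of each pair had the same call, 6 pairs higher and 2 lower in control roots. However, novel_mir14, novel_mir16, novel_mir39, novel_mir53 and novel_mir54 had no counts in any control leaf, so their calls add nothing to those missing counts. Every higher pair other than novel_mir67 with novel_mir68 holds such a member, which limits what the shared calls show. Of all 90 predicted microRNAs, 45 were called higher and 29 lower, beside 41.1% and 38.7% of all 124. Pairs that lie in a row share members, so the 8 pairs stand for fewer separate places. Whether neighbours share a call more often than other predicted microRNAs was not tested. novel_mir13, novel_mir14, novel_mir15 and novel_mir16 lie in a row with gaps of 81.6, 30.7 and 9.4 kb, and all were higher in control roots (log2 fold changes of 5.34 and 6.48 for novel_mir13 and novel_mir15, which were read in leaves). novel_mir38 and novel_mir39, 7.5 kb apart, novel_mir53 and novel_mir54, 3.7 kb apart, and novel_mir67 and novel_mir68, 1.6 kb apart, were higher too. Without control root library 3, novel_mir38 was at 6.55 against 7.35 with it, and novel_mir67 at 5.75 against 6.36. novel_mir63, novel_mir64 and novel_mir65, with gaps of 77.1 and 78.5 kb, were lower, at -2.95, -2.81 and -2.03. Neighbours with near-identical precursors can share reads, so these pairs are not independent. Precursor length did not set the groups apart, with a median of 190 bases for those higher and 186 for those lower.

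siRNAs were the most numerous class and were far more diverse in leaves. Control roots held 3701, 3381 and 1576 siRNAs above 0, against 9261, 9407 and 9711 in control leaves. Every leaf library had more than every root library, and control root library 3 had the fewest. Because leaf libraries were deeper, the count was repeated with the threshold of 10 counts scaled to the depth of the smallest library, a choice made after seeing the data. It gave 3701, 3140 and 1479 in control roots, against 6451, 6455 and 6665 in control leaves. Detected in all 3 control roots and in no control leaf were 72 siRNAs (101 at matched depth), and 3035 (1570 at matched depth) were detected in all 3 control leaves and no control root. Under PEG, 58.3% of the root set were again in all 3 roots and no leaf, while 29.2% were detected in a PEG leaf. Of the leaf set, 34.9% were again in all 3 leaves and no root under PEG, while 41.0% were detected in a PEG root. All 6 control libraries held 1224 siRNAs. The leaf set had a median of 21 counts in control leaves, close to the minimum of 10, so absence from roots is weakly measured for many.

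**Figure D5:**
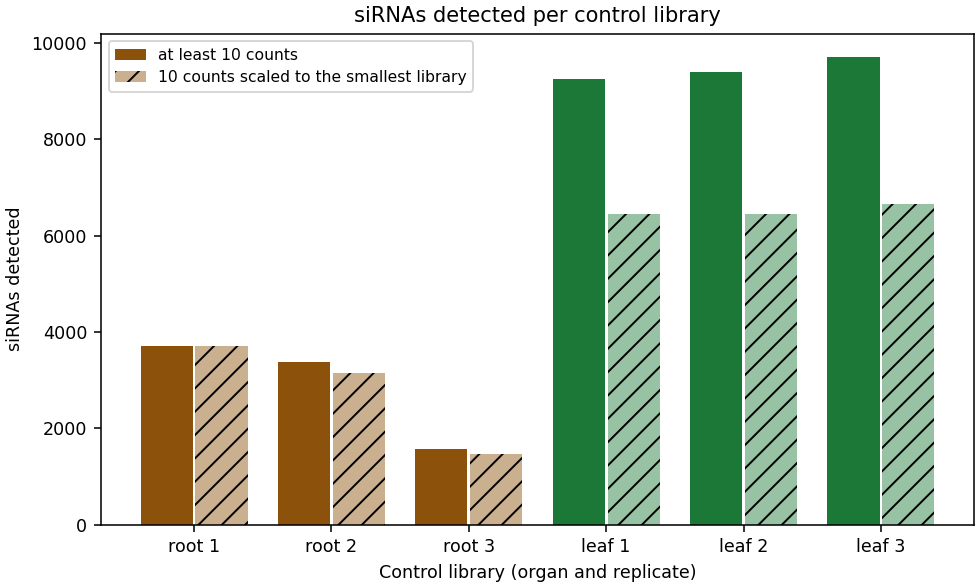
Number of siRNAs detected in each control library, roots left of leaves, at 10 counts (solid bars) and at 10 counts scaled to the depth of the smallest library (hatched bars). Roots stay below leaves at matched depth, with 1479 to 3701 siRNAs in roots against 6451 to 6665 in leaves.

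All features were fitted together to compare siRNAs, 10604 of 15900 passing the count minimum. In this fit 5.48% of all features were called higher and 18.3% lower in control roots (23.8% in all, 2520 features). Of 10266 siRNAs tested, 407 were higher and 1893 lower; without control root library 3, 355 were higher and 1750 lower, where 4.88% of all features were called higher and 16.9% lower (21.8% in all). With the replicate block 230 were higher and 147 lower, where 3.27% of all features were called higher and 1.6% lower (4.88% in all). Scaled to all counted reads, 266 were higher and 3389 lower, where 3.92% of all features were called higher and 32.7% lower (36.6% in all). Of the 1893 lower, 1701 were at 0 in every control root, and of the 407 higher, 110 were at 0 in every control leaf; a feature that passes the minimum through one organ had to differ in this way. Among the 1224 siRNAs read in all 6 control libraries, 237 were higher and 134 lower, with a median log2 fold change of -0.04. Under PEG, 252 of the 407 were again called higher and 1174 of the 1893 again called lower. Of all 10604 features, 453 were called higher and 1301 lower in that contrast.

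The most abundant siRNAs were shared by both organs. novel_sir13757 led every control library, with 31440, 39738 and 13046 counts in control roots, against 162204, 145794 and 127485 counts in control leaves. In CPM of all features it had 12545 ± 1649 in control roots and 18682 ± 2372 in control leaves (SD, n = 3 each), a log2 fold change of -0.57 that did not pass (adjusted p = 0.0894, edgeR). novel_sir12465, with 7240 ± 1393 CPM in control roots and 7393 ± 723 CPM in control leaves, and novel_sir6423, with 7132 ± 1043 CPM in control roots and 9837 ± 1256 CPM in control leaves, did not pass either. Scaled to all counted reads, these 3 were lower in control roots and passed, with log2 fold changes of -1.80, -1.24 and -1.67. novel_sir16047 had 4281, 3397 and 1730 CPM in control roots, against 10834, 8299 and 12991 CPM in control leaves, and was lower by a log2 fold change of -1.77 (adjusted p = 0.0333). That call was lost without control root library 3 (adjusted p = 0.0867) and with the block (adjusted p = 0.142), and also without control root library 2 or control leaf library 1 or 3.

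The largest siRNA differences were between a group at 0 and one well above it. Each siRNA named here passed the count minimum through 1 organ and was picked for its large change. Its adjusted p and call therefore add nothing to the zeros. novel_sir10392 had 0 counts in each control root, against 3026, 2435 and 2198 counts in control leaves, at least 68.3-fold lower in roots (adjusted p = 0.000256, edgeR). novel_sir4168 was at least 57.67-fold lower, novel_sir15930 at least 41.0-fold and novel_sir12076 at least 22.66-fold, each at 0 in every control and PEG root. In the other direction novel_sir6849 had 242, 93 and 410 counts in control roots, against 0 in each control leaf, at least 137.8-fold higher (adjusted p = 0.00632). novel_sir8262 (at least 115-fold), novel_sir10496 (at least 99.98-fold) and novel_sir7418 (at least 99.69-fold) were also at 0 in the control leaves. Each of these 4 had its highest CPM in control root library 3. Without it the bounds were 54.44 for novel_sir6849, 55.69 for novel_sir8262, 45.23 for novel_sir10496 and 45.54 for novel_sir7418.

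Other Rfam families were nearly all higher in control roots where they were called: 41 of 43 small nucleolar RNAs tested, 10 of 10 ribosomal RNAs, 4 of 4 small nuclear RNAs, the 1 transfer RNA and 21 of 24 in the remaining families, and none of these classes had a member called lower, where 5.48% of all features were called higher and 18.3% lower. siRNAs made up 10266 of those 10604 features. When siRNAs were left out of the fit, 144 of 338 features were called higher and 118 lower. With the replicate block, 34 small nucleolar RNAs, 9 ribosomal RNAs, 3 small nuclear RNAs, the transfer RNA and 11 of the remaining families were called higher. Many of the 24 remaining families, though not all, are named after bacteria. The family named Betaproteobacteria transfer-messenger RNA had 5212, 5887 and 10620 counts in control roots, against 49, 48 and 86 counts in control leaves. Whether the reads of such families come from sunflower was not tested. Of 37 microRNA precursor families, 26 were called higher, 21 of these 26 without control root library 3, 3 with the block, and 2 in the same contrast under PEG. The families mir-10 (RF00104) and mir-26 (RF00244) were called higher (adjusted p = 0.00895 and 0.0125) and lost the call with the block (adjusted p = 0.103 and 0.234). The mir-166 precursor family (RF00075), which holds the plant miR166 hairpin, was lower, with 1644, 2656 and 1282 counts in control roots, against 15531, 13285 and 20541 counts in control leaves (log2 fold change -1.25, adjusted p = 0.0300, edgeR; adjusted p = 0.154 with the block). That call was also lost without control root library 1 and without control leaf library 1 or 3. The eukaryotic small subunit ribosomal RNA (RF01960) had 164418, 217005 and 249195 counts in control roots, against 40223, 29617 and 70945 counts in control leaves, a log2 fold change of 4.28, and 3.44 without control root library 3. The family named bacterial large subunit ribosomal RNA (RF02541) had 155058, 108148 and 84746 counts in control roots, against 1576, 1204 and 2738 counts in control leaves, a log2 fold change of 7.90 (SE 0.47, adjusted p = 3.13e-05). The source of its reads was not tested.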

How the data were processed

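The authors deposited one table with an unnormalised count for each small RNA and library, with the same values in TPM (0.001 written for a count of 0). The TPM values matched count over column total within 0.0051 in 99.4% of cells and were not used further. Bowtie2 2.2.9 and Bowtie are named, without a role, per the submitters' processing notes; for settings, genome build and strand handling, nothing is given in the sources used here. Libraries followed BGI500 protocols, per the labels' protocols. Of 15903 entries, 3 (exon, intron, intergenic) name no feature and were left out of library sizes and tests.

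Tests ran in R 4.3.3 on the deposited counts with edgeR 4.0.16 (TMM, glmQLFit, glmQLFTest) over all 12 libraries with a mean per group (8 residual degrees of freedom), for features that reached 10 counts in 3 or more libraries; Benjamini-Hochberg adjustment ran over the whole table. Intervals are at 95%; they and lower bounds cover counting error or the spread of these libraries only, since reads carry no molecular identifiers. Names within families were tested with diffSpliceDGE. DESeq2 1.42.0 and limma 3.58.1 voom were alternatives; scripts were tested on simulated data. All known families are reported; values per library are given for the 8 largest changes each way and the 5 most abundant of each organ, for the 6 largest changes each way and 5 most abundant predicted microRNAs, and for the 4 and 3 siRNAs likewise, among those called without overlap and with a mean count of at least 10. Names within families are given where called and for the leading names of 13 families, and the 2 most abundant Rfam families of each organ are named. Members, lists and tests were chosen with earlier results of these data known. Same-numbered control root and leaf libraries deviated together from their group means (correlations of 0.216, 0.182 and 0.218 over 10604 features), a pairing read from the data, since labels state none; the fit with the replicate number within treatment as a block is printed where it changed a call.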

Additional observations from a re-analysis of the deposited data

Results flagged for a closer look

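A list of 7 animal microRNA precursor families, outside the main measurement, reached 2167 RPM in control root library 3, against 68.8 and 68.3 RPM in control root libraries 1 and 2, 48.96 to 59.9 RPM in PEG roots, 18.6 to 28.4 RPM in PEG leaves and 22.4 to 25.0 RPM in control leaves. In control root library 3, mir-10 alone gave 45653 of the 48610 counts of the list. The source of these reads was not tested. The organ difference of the family named bacterial large subunit ribosomal RNA (RF02541) was itself different under PEG: its log2 fold change of roots over leaves was 3.65 under PEG and 7.90 in controls, a difference of -4.25 (SE 0.51, adjusted p = 0.0167, edgeR). It had 32454, 23687 and 23424 counts in PEG roots and 3188, 3903 and 3953 counts in PEG leaves, against 155058, 108148 and 84746 counts in control roots and 1576, 1204 and 2738 counts in control leaves.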

How the results depend on the processing

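Of the 25 known families called, 10 kept their call in all 17 settings tried, miR477 kept it in the 15 where it could be fitted, and 22 never changed sign; miR396, miR164 and miR159 changed sign with known families alone. Leaving out each control library in turn gave 22 to 24 known families called, 68 to 75 predicted microRNAs, 2252 to 2604 of all features, 2060 to 2400 siRNAs and 12 to 16 names within families. For the difference of organ contrasts under PEG, control root library 3 alone was left out, with 0 families called. Class shares kept their direction in every such setting. Against 2520 of all features and 2300 siRNAs called, scaling to all counted reads gave 3886 and 3655, a minimum of 50 counts gave 1048 and 874 with fewer features tested, and the replicate block gave 517 and 377. The 6 control libraries fitted alone gave 3527 siRNAs, and leaving siRNAs out gave 262 of all features, with fewer tested. The replicate block gave 11 names within families against 17, and 8 families whose organ contrast differed under PEG, where DESeq2 gave 30 and edgeR 0. The block took the calls of miR164, miR390, miR172, novel_sir16047, RF00075, RF00104 and RF00244, and, within families, of miR156k, miR172a_2, miR160, miR393a-5p, miR171_1 and miR393h; it changed no other call among the features named. The cause of these changes was not tested.

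Reversals of the log2 fold change fell mostly on families that were not called. With known families alone, miR169 was at 0.075, miR394 at 0.20, miR7804 at 0.45, miR159 at 0.65, miR396 at 0.70, miR164 at 0.73, miR845 at 1.12, miR403 at 1.41 and miR395 at 1.46. miR157 was at -0.0685 with library totals, -0.16 with all counted reads, -0.25 with limma voom, -0.40 at 50 counts, -0.32 with the block, -0.36 with zeros set to 9, and -0.53 to 0.66 leaving out a library. miR399 was at -0.074 with all counted reads, -0.16 with zeros set to 9, and -0.12 to 0.70 leaving out a library. miR160 was at -0.072 with voom, -0.29 with the block, and -1.27 to 1.16 leaving out a library. In the 6 control libraries alone, miR403 was at 0.30, miR395 at 0.30 and novel_mir75 at 0.37. Leaving out a library gave -0.69 to 0.26 for miR395, -1.09 to 0.26 for miR845, -0.48 to 0.052 for novel_mir75 and -0.37 to 0.050 for novel_sir12465, which was at 0.016 at 50 counts. As natural logs relative to its family, miR167d-5p was at 0.055 at 50 counts, 0.019 in the 6 control libraries alone, 0.27 with the block and -0.44 to 2.97 leaving out a library. On that measure the name miR156 ranged from -0.77 to 0.22. Chosen after seeing the data, detection at matched depth gave 1570 siRNAs in all 3 control leaves and no control root, against 3035. Bounds without control root library 3 were likewise added after seeing the data.

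Depth limits the families with few counts, such as miR172, miR477, miR4995 and miR5368, and every siRNA or predicted microRNA near the minimum of 10.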
